A study of Yarrowia lipolytica with 9 samples.

Results

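Strains yl_12 and yl_10 of Yarrowia lipolytica, from a series on yeast making the red carotenoid lycopene, were compared by RNA sequencing over every expressed feature. The comparison used 6 of the 9 libraries of the series, 3 of yl_12 and 3 of yl_10, chosen by the strain name in their labels. The 3 libraries of a further strain, yl_11, entered the fit to help estimate the spread. Every group descends from Y. lipolytica strain ATCC 201249, carries heterologous genes whose identity the labels do not give, and was grown in flasks for 72 h at 28 °C and 250 rpm. No label says how much lycopene a strain makes or which strain is a parent or control, and yl_10 served only as the denominator of each fold. Whether a strain is 1 clone, and whether its 3 libraries are 3 cultures, is also not said. The p-values therefore rest on library-to-library spread, part or all of which may be technical.

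Yarrowia lipolytica is an oleaginous yeast, one that stores much of its carbon as lipid. Lycopene is an isoprenoid: acetyl-CoA is condensed through the mevalonate pathway to isoprenyl diphosphates, which enzymes of carotenoid synthesis, foreign to this yeast, join and desaturate. The same acetyl-CoA feeds fatty acid synthesis, and the same prenyl diphosphates feed sterol synthesis, so lipid and isoprenoid enzymes are the usual interest in such strains. The deposited tables name features by RefSeq accession, and the RefSeq gene table used here gives locus tags without product names or sequences. Lipid and isoprenoid enzymes were therefore not named here: 0 of the product names listed for them occur among the symbols of that table. Features appear below by locus tag, accession and coding length, with no function attached.

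Library totals ran from 11826987 to 12471651 counts in yl_12 and from 7035777 to 14100668 counts in yl_10, and levels are given as CPM, counts relative to the library total after TMM scaling. Replicate 3 stood apart from the other libraries of its strain in both yl_12 and yl_10. Over the features, counts of replicates 1 and 2 differed by a chi-square of 1.73 per degree of freedom in yl_12 and 1.86 in yl_10. Replicate 3 differed from them by 14.7 and 15.5 in yl_12 and by 10.8 and 9.82 in yl_10. Counts of calls, and the log2 fold changes of several named features, are therefore given with and without these libraries. The fit without them also left out yl_11 replicate 1. In each strain the library correlating least with the others was taken, so the rule takes a library of yl_11 whatever its deviation.

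Strain yl_12 differed from yl_10 in 910 of 6147 tested features, which is 14.8%, at an adjusted p below 0.05 in the quasi-likelihood test of edgeR with Benjamini-Hochberg adjustment. Of these, 430 (7.00%) were higher and 480 (7.81%) were lower in yl_12. Most changes were small. The log2 fold change lay under 0.5 in size for 672 of the 910, or 73.85%, and its median size was 0.31 among the rises and 0.36 among the falls. A change of at least 2-fold was reached by 56 features (0.911% of those tested), 25 higher and 31 lower, and only 3 rises and 2 falls reached a log2 fold change of 2 in size. Over all tested features the 25th and 75th percentiles of the log2 fold change were -0.12 and 0.11, with a median of 0.00. In bulk RNA a shift in the make-up of a culture and a change in RNA per cell cannot be told apart.

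**Figure D1:**
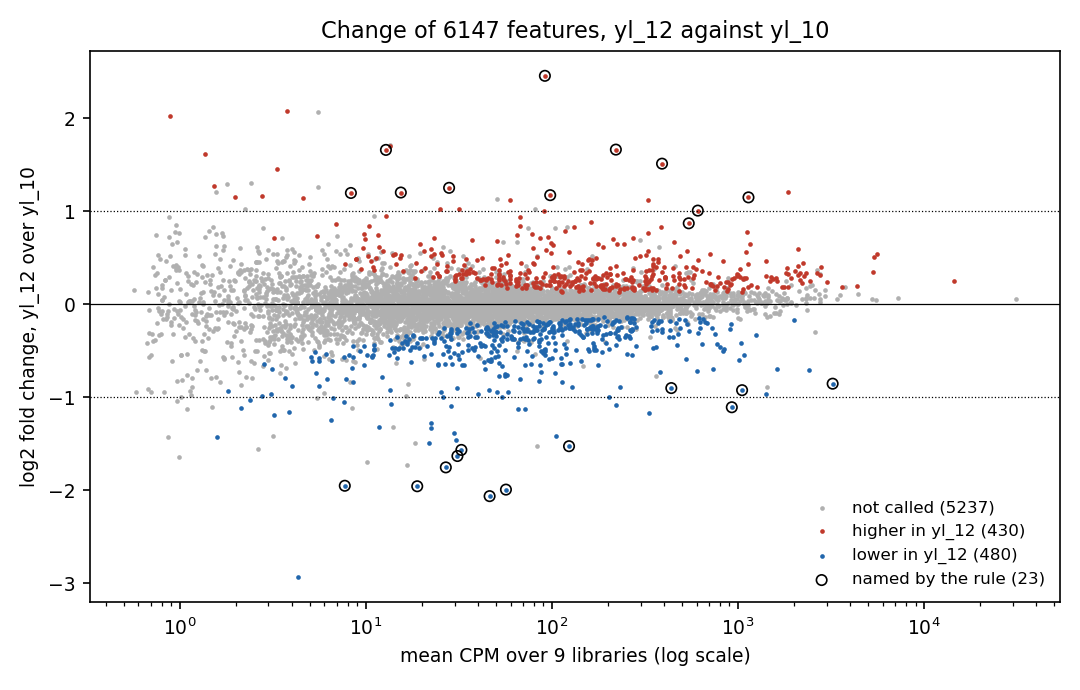
Log2 fold change of yl_12 over yl_10 (vertical) against the mean CPM over 9 libraries (horizontal, log scale) for 6147 tested features. Red points are the 430 features higher in yl_12, blue points the 480 lower, grey points those not called, and black rings the 23 features named by rule; dotted lines mark a 2-fold change, passed by 56 called features.

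The balance of rises and falls depended on the scaling. With library totals as the only scaling, 264 features were higher and 791 lower, so rises made up 25% of the calls. Without the library of each strain that stood apart, 960 were higher and 960 lower. These held 871 of the 910 calls in the same direction, which is 95.7% of the 910 and 45.4% of the larger set, and the choice itself lowers the spread. The count of rises was 279 without yl_12 replicate 1, 266 without yl_12 replicate 2 and 280 without yl_10 replicate 1.

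Intervals from the main fit also describe how far features stayed alike. They rest on the same library-to-library spread as the p-values, which may be technical, and each holds for its feature alone. For 4536 features (73.8%) the whole 95% interval of the log2 fold change lay between -0.5 and 0.5, and for 2177 (35.4%) it lay between -0.25 and 0.25. At the other end, the whole interval lay above 0.5 for 35 features and below -0.5 for 60. It lay above 1 for 6 and below -1 for 14. The libraries of both strains did not overlap in 1939 features (31.5%), 933 higher (15.2%) and 1006 lower (16.4%) in yl_12. With 3 libraries a strain, some features separate in this way without any difference between strains, and that share was not estimated.

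Of the features named by rule, YALI1_F26427g (XM_505640.1, coding length 1818 nt) had the largest rise. It was measured at 193, 189.7 and 226 CPM in the yl_12 libraries and at 36.8, 33.8 and 40.6 CPM in those of yl_10. All 3 yl_12 libraries stood clear of every other library of the series, since yl_11 had 41.01, 31.7 and 32.6 CPM. It changed by 2.46 on the log2 scale (SE 0.11, adjusted p = 6.29e-07), with a 95% interval of 2.21 to 2.70. Per coding length its level was 109 FPKM in yl_12 and 20.7 FPKM in yl_10. Its nearest tested neighbours in gene order were called in the same direction with smaller changes, at a log2 fold change of 0.43 (SE 0.08) for YALI1_F26399g and 0.79 (SE 0.13) for YALI1_F26519g. Counting by strand is not stated, so reads of overlapping transcripts in this stretch cannot be told apart.

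YALI1_B29419g (XM_501224.1, 1101 nt) combined a large fold with a high level. It had 635, 626 and 652 CPM in yl_12 libraries and 198, 196 and 279 CPM in yl_10 libraries. The yl_12 libraries lay close together, and the highest yl_10 value was replicate 3, the library that stood apart. On the log2 scale the change was 1.51 (SE 0.12, adjusted p = 6.79e-05) and 1.68 without the libraries that stood apart. Both adjacent tested genes, YALI1_B29266g and YALI1_B29446g, were not called, with log2 fold changes of -0.03 (SE 0.08) and -0.01 (SE 0.04).

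YALI1_F30593g (XM_505784.1, 1017 nt) stood at 358, 395 and 299 CPM in yl_12 libraries, against 122, 136 and 70.3 CPM in yl_10 libraries. In both strains replicate 3 was the lowest library. The log2 fold change was 1.67 (SE 0.27, adjusted p = 0.00837). YALI1_A05527g (XM_499787.1, 3039 nt) was at 169.6, 175 and 131 CPM in yl_12 and at 74.7, 68.3 and 66.7 CPM in yl_10, a change of 1.18 on the log2 scale (SE 0.11, adjusted p = 8.97e-05). Its yl_11 libraries, at 59.9, 68.4 and 68.2 CPM, lay with those of yl_10.

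YALI1_C00550g (XM_501286.1, 1728 nt) had 47.6, 49.7 and 34.4 CPM in yl_12 and 21.97, 19.6 and 11.97 CPM in yl_10, where replicate 3 was again the lowest of each strain. It changed by 1.25 on the log2 scale (SE 0.24, adjusted p = 0.0111), and both adjacent tested genes were also called higher, YALI1_C00503g by 0.70 (SE 0.15) and YALI1_C00615g by 0.17 (SE 0.04) on the log2 scale.

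3 scarcer features completed the rises of the naming rule. YALI1_F24247g (XM_505571.1, 705 nt) was at 9.44, 11.7 and 14.2 CPM in yl_12 and 6.08, 4.56 and 4.28 CPM in yl_10, a change of 1.20 on the log2 scale (SE 0.18, adjusted p = 0.000869). This change was called in each of the 18 alternatives. YALI1_B07331g (XM_500525.1, 627 nt) was at 15.8, 23.1 and 24.00 CPM in yl_12 and 7.32, 9.12 and 2.71 CPM in yl_10, a change of 1.66 on the log2 scale (SE 0.39, adjusted p = 0.0272). With 1 library left out, its call was lost without yl_12 replicate 2 (adjusted p = 0.0843), yl_12 replicate 3 (0.069) or yl_10 replicate 1 (0.0838). YALI1_C29355g (XM_502084.1, 522 nt) was at 15.5, 16.8 and 31.1 CPM in yl_12 and 8.57, 7.25 and 12.3 CPM in yl_10, a change of 1.20 on the log2 scale (SE 0.30, adjusted p = 0.0292). Replicate 3 was the highest library of both strains here, and the call was lost without yl_10 replicate 1 (adjusted p = 0.115) or replicate 2 (0.0941) and in the fit of 6 libraries (0.0689). Its neighbour YALI1_C29344g, chosen after its values were seen, also rose from a low level, with 1.29, 1.30 and 1.99 CPM in yl_12 and 0.276, 0.468 and 0.428 CPM in yl_10. On the log2 scale the change was 2.02 (SE 0.42, adjusted p = 0.00602), on 3 to 4 counts in each yl_10 library, and the call was lost without yl_10 replicate 1 (adjusted p = 0.0511).

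Among the falls, YALI1_E23790g (XM_504164.1, 1059 nt) combined a large change with a narrow spread. It had 10.2, 10.2 and 10.8 CPM in yl_12 libraries, against 39.2, 33.3 and 31.8 CPM in yl_10 libraries. The 3 yl_12 libraries lay close together, and yl_11, at 37.5, 35.04 and 34.3 CPM, overlapped yl_10. The log2 fold change was -1.75 (SE 0.10, adjusted p = 3.77e-07). Its adjacent tested genes, YALI1_E23749g and YALI1_E23809g, were not called, with log2 fold changes of 0.02 (SE 0.07) and 0.06 (SE 0.12).

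YALI1_E09779g (XM_503684.1, 549 nt) was at 15.5, 12.3 and 15.1 CPM in yl_12 and 45.7, 47.6 and 38.8 CPM in yl_10, a change of -1.63 on the log2 scale (SE 0.10, adjusted p = 9.48e-07). One adjacent gene, YALI1_E09769g, fell with it by 0.96 on the log2 scale (SE 0.25), while the other, YALI1_E09817g, rose by 0.27 (SE 0.05). YALI1_E40671g (XM_504765.1, 1599 nt) was at 81.4, 77.4 and 56.02 CPM in yl_12 and 197, 189 and 232 CPM in yl_10, a change of -1.52 on the log2 scale (SE 0.13, adjusted p = 0.000112). Here yl_11, at 94.2, 92.6 and 92.8 CPM, lay near yl_12, and its log2 fold change over yl_10 was -1.14 (SE 0.13, adjusted p = 0.00242); 4.16% of features were called in that comparison, which uses the same yl_10 libraries.

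YALI1_C21578g (XM_501861.1, 828 nt) was at 14.8, 11.7 and 20.5 CPM in yl_12 and 44.8, 45.01 and 49.7 CPM in yl_10, a change of -1.56 on the log2 scale (SE 0.23, adjusted p = 0.00296). YALI1_C18209g (XM_501783.1, 183 nt) was at 6.52, 5.77 and 10.8 CPM in yl_12 and 33.8, 31.1 and 23.5 CPM in yl_10, a change of -1.95 on the log2 scale (SE 0.27, adjusted p = 0.00161). YALI1_E10320g (XM_503697.1, 1221 nt) was at 2.23, 2.52 and 4.22 CPM in yl_12 and 12.7, 10.4 and 11.4 CPM in yl_10, a change of -1.95 on the log2 scale (SE 0.23, adjusted p = 0.00016). In each of these 3 features yl_12 replicate 3 was the yl_12 library nearest to yl_10.

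The 2 largest falls named by rule were the 2 named falls that lost their call in other settings. YALI1_F25382g (XM_505603.1, 2472 nt) was at 12.5, 13.9 and 28.8 CPM in yl_12 and 66.7, 70.96 and 94.9 CPM in yl_10, and YALI1_F08585g (XM_505048.1, 876 nt) was at 21.3, 16.4 and 35.3 CPM in yl_12 and 81.9, 76.6 and 134 CPM in yl_10. For both features replicate 3 was the highest library of each strain. The log2 fold changes were -2.06 (95% interval -3.12 to -0.997) and -1.99 (95% interval -2.97 to -1.01). Without the libraries that stood apart they were -2.37 and -2.08. YALI1_F25382g was not called when yl_12 replicate 1 or 2, or any 1 of the yl_10 libraries, was left out, with an adjusted p of up to 0.0894. YALI1_F08585g was not called when yl_12 replicate 1 or 2 was left out, with an adjusted p of up to 0.0807.

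**Figure D2:**
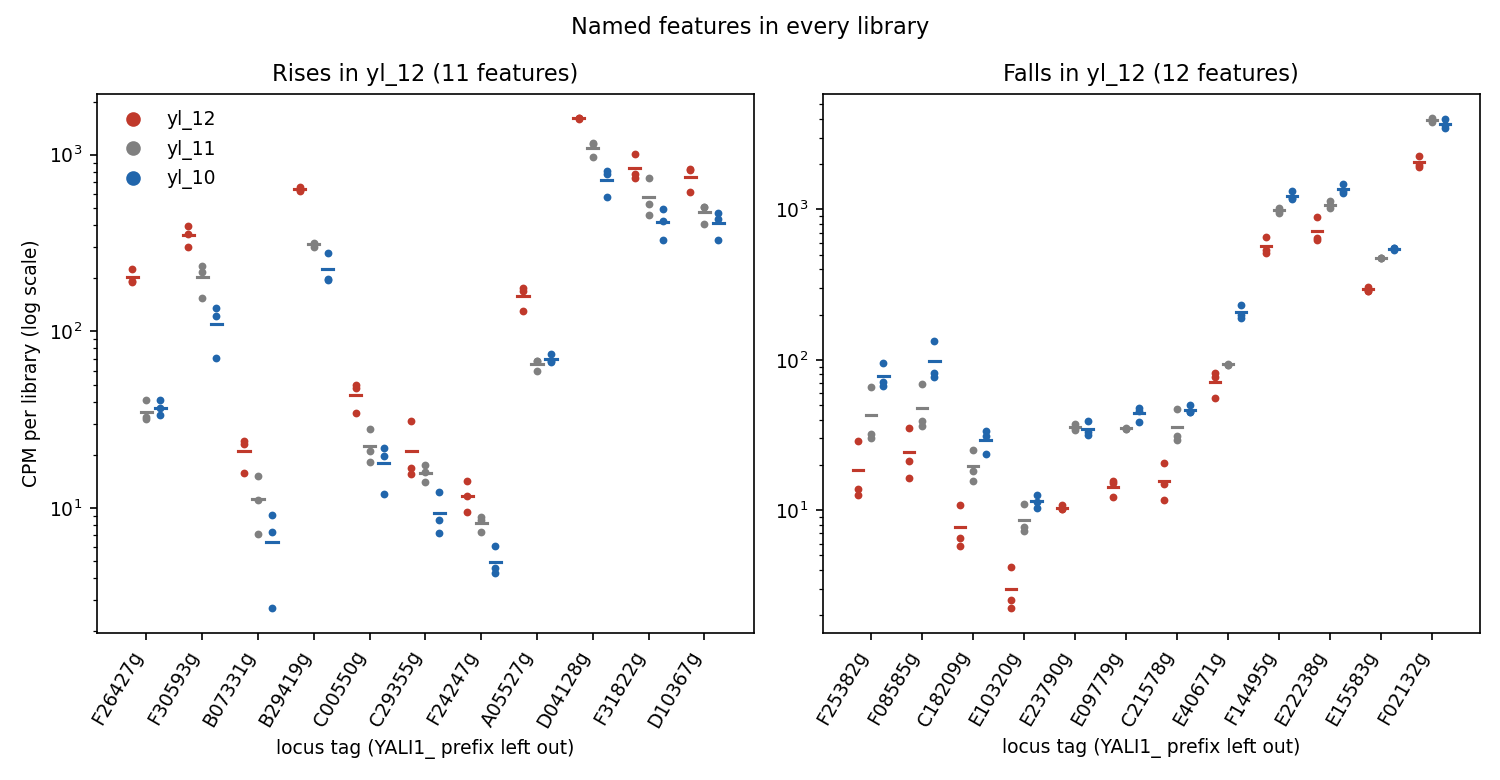
CPM of the 23 features named by rule in each library (vertical, log scale), with yl_12 in red, yl_11 in grey and yl_10 in blue; points are libraries and short lines are means of 3. The rule required that yl_12 and yl_10 libraries did not overlap, as for YALI1_F26427g at 203 ± 20.02 CPM in yl_12 and 37.1 ± 3.42 CPM in yl_10 (SD, n = 3 each).

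The tested features were also split by mean level into 10 classes of 614 or 615. In class 10, those with at least 348.3 CPM, the largest rise was that of YALI1_B29419g, described above. The next among features with a locus tag was YALI1_D04128g (XM_502357.1, 660 nt), with 1608, 1613 and 1594 CPM in yl_12 libraries, against 781, 806 and 578 CPM in yl_10 libraries. The yl_12 libraries lay within a few percent of each other, while yl_10 replicate 3 was well under the other yl_10 libraries. It changed by 1.15 on the log2 scale (SE 0.12, adjusted p = 0.000296), and the level per coding length was 2385 FPKM in yl_12 and 1115 FPKM in yl_10. YALI1_D10367g (XM_502560.1, 951 nt) was at 816, 826 and 612 CPM in yl_12 and 430.2, 468 and 331 CPM in yl_10, a change of 0.87 on the log2 scale (SE 0.17, adjusted p = 0.0128). YALI1_F31822g (XM_505829.1, 609 nt) was at 737, 773 and 1004 CPM in yl_12 and 494, 422 and 328 CPM in yl_10, a change of 1.01 on the log2 scale (SE 0.24, adjusted p = 0.031). This last call was lost without any 1 of yl_12 replicate 1, 2 or 3 or yl_10 replicate 2 or 3, with an adjusted p of up to 0.0872.

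Of the falls in class 10, the largest was that of YALI1_F14495g (XM_505264.1, 2103 nt). It had 538, 513 and 659 CPM in yl_12 libraries and 1192, 1163 and 1324 CPM in yl_10 libraries. The naming rule required that these libraries did not overlap. Libraries of yl_11 lay nearer to yl_10, at 1022, 977 and 949.7 CPM. On the log2 scale the change was -1.11 (SE 0.09, adjusted p = 2.22e-05). YALI1_E22238g (XM_504109.1, 1245 nt) was at 644, 621 and 892 CPM in yl_12 and 1321, 1285 and 1479.9 CPM in yl_10, a change of -0.92 on the log2 scale (SE 0.13, adjusted p = 0.002).

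YALI1_E15583g (XM_503871.1, 1746 nt) was at 289, 288 and 305 CPM in yl_12 and 555, 534 and 553 CPM in yl_10, with yl_11 between them at 473, 476 and 473 CPM. The spread within each strain was small beside the gap, and the change was -0.90 on the log2 scale (SE 0.04, adjusted p = 2.44e-07). This gene lies in a stretch with several falls, set out here after its values were seen. Ahead of it in gene order, YALI1_E15555g and YALI1_E15559g changed by -1.46 (SE 0.11) and -1.12 (SE 0.06). Behind it, YALI1_E15625g was not called, at -0.01 (SE 0.11), and then YALI1_E15629g and YALI1_E15659g changed by -1.11 (SE 0.28, adjusted p = 0.0182) and -0.73 (SE 0.06, adjusted p = 1.49e-05). The next tested gene ahead of these, YALI1_E15469g, was not called, at 0.24 (SE 0.14). Of all tested features 7.81% were called lower, and other genes without a tested feature may lie between those named.

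The last abundant fall had a higher level. YALI1_F02132g (XM_504857.1, 1572 nt) was at 1960.2, 1923 and 2280.2 CPM in yl_12 and 3653, 3494 and 3976 CPM in yl_10, a change of -0.85 on the log2 scale (SE 0.07, adjusted p = 1.29e-05). At 4049, 3901 and 3799 CPM, yl_11 overlapped yl_10.

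Of the 23 features named by rule, 11 rose and 12 fell. Means of yl_11 lay between those of yl_12 and yl_10 for 9 of the 11 rises and 10 of the 12 falls. No share over all tested features is given for this tally. In yl_12 against yl_11, which shares the yl_12 libraries, 14 of the 23 were called in the same direction, where 7.04% of all features were called in either direction. In yl_11 against yl_10, which shares the yl_10 libraries, 3 of the 23 were called in the same direction. They were YALI1_E40671g, YALI1_D04128g and YALI1_E15583g, and 4.16% of all features were called in either direction there. Of the 46 genes next to a named feature in gene order, 11 were called in its direction and 4 in the other, beside the background of 14.8% called in either direction. The shared libraries and the naming by fold bear on these counts, so they are given as a description.

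**Figure D3:**
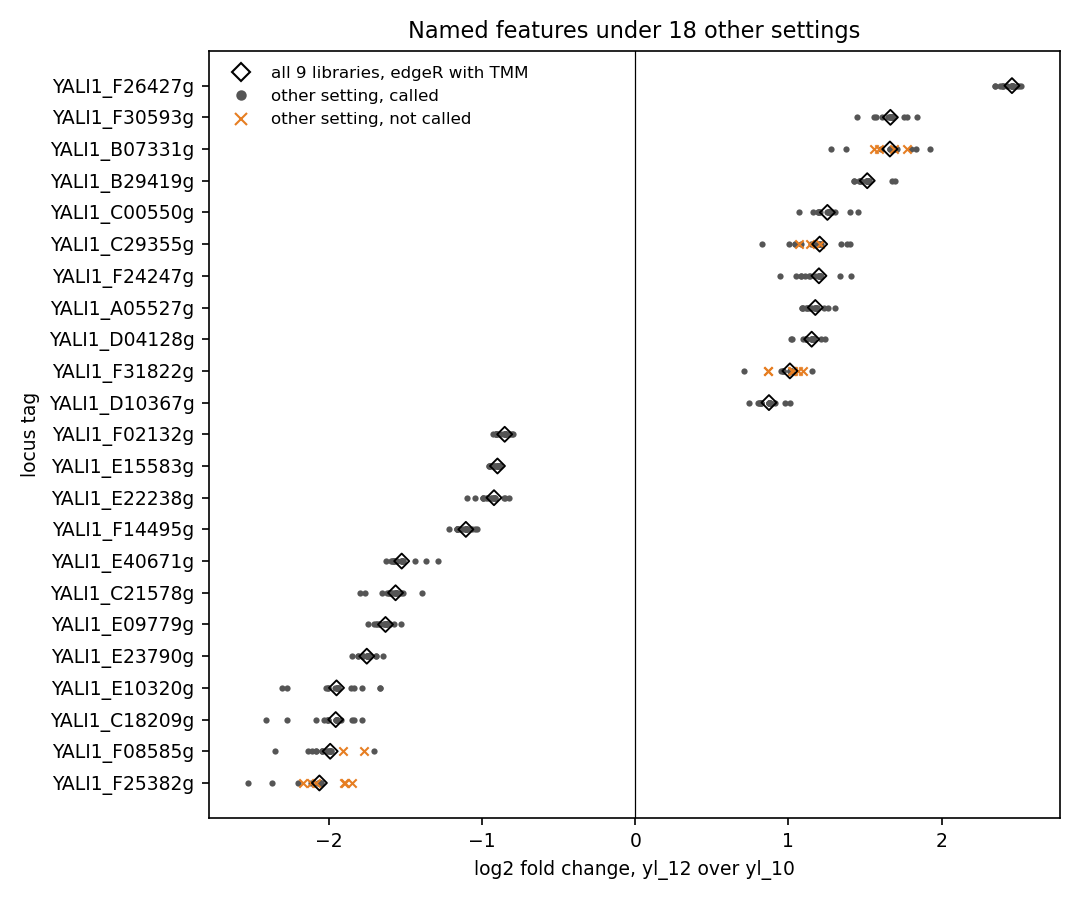
Log2 fold change of yl_12 over yl_10 (horizontal) for the 23 features named by rule under 18 other settings. Diamonds are the fit of 9 libraries, dots other settings with a call and crosses other settings without one; 18 features kept their call in all settings shown, 5 lost it in at least 1, and none changed sign.

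Rises and falls were spread unevenly over the range of levels. In class 1, the scarcest features, with a median of 2.62 CPM, 1.47% were higher and 2.12% lower in yl_12. The share of falls climbed to 12.4% in class 8 and was 8.46% in class 10. The share of rises climbed to 11.7% in class 9 and 19.3% in class 10, at a median of 638 CPM. Counts per feature grow along this axis and with them the power to call a small change. In class 10, 119 features were higher and 52 lower, with a median log2 fold change of 0.05 beside 0.00 over all features. With library totals as the only scaling the numbers there were 90 and 83, and without the libraries that stood apart they were 284 and 116. Outside class 10 the main fit gave 311 rises and 428 falls. Scaling by library totals alone gave 174 rises and 708 falls outside it, and leaving out the libraries that stood apart gave 676 and 844. In each of these settings rises outnumbered falls inside class 10, by few with library totals alone, and falls outnumbered rises in the rest as a whole.

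**Figure D4:**
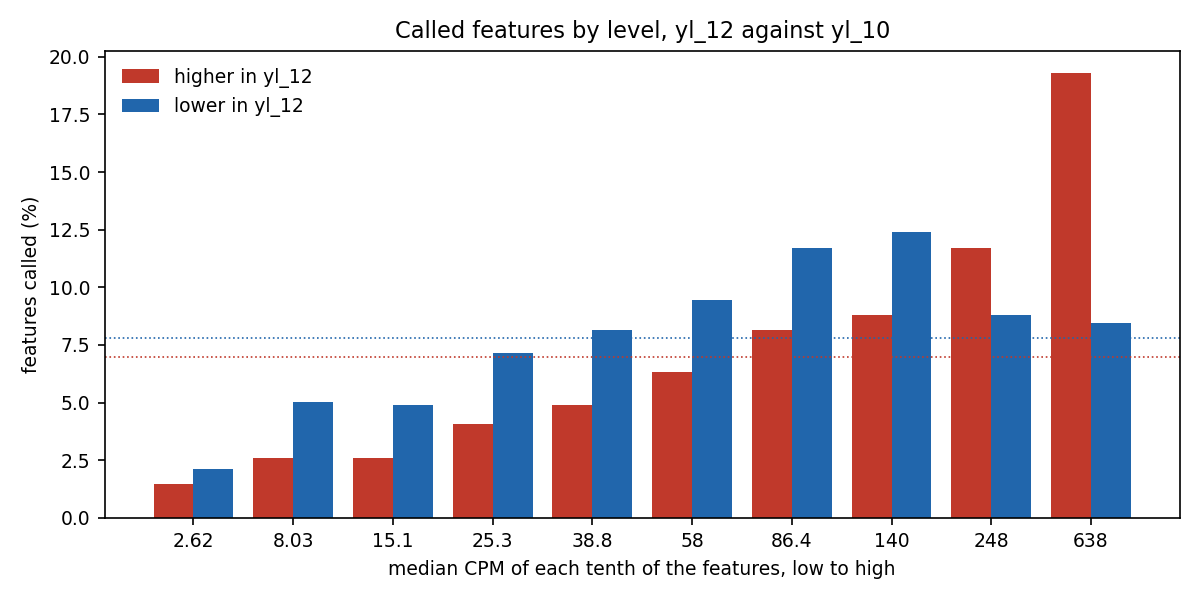
Share of features called higher (red) or lower (blue) in yl_12 than in yl_10, in percent (vertical), for 10 classes of the 6147 features ordered by mean CPM, labelled by their median CPM (horizontal). Dotted lines are the shares over all features, 7.00% higher and 7.81% lower; the rises reach 19.3% in class 10.

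As shares of each library total, without TMM factors, the 430 features called higher took 21.28%, 21.4% and 20.73% of the counts in the yl_12 libraries. In the yl_10 libraries they took 17.47%, 17.58% and 16.77%. The 480 called lower took 6.42%, 6.39% and 6.51% in yl_12 and 8.99%, 8.90% and 8.94% in yl_10. In yl_11 the shares were 18.71%, 19.3% and 19.23% for the features called higher and 7.95%, 7.92% and 7.97% for those called lower. These features were chosen by the same counts, so the shares describe how much of the transcript pool the calls covered and are no test.

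The called features with the largest gains and losses in CPM were chosen after their values were seen. The largest gain in CPM among the calls was that of YALI1_D16249g (XM_502776.1, 666 nt), with 15746, 15521 and 15913 CPM in yl_12 and 13104, 12899 and 13500.0 CPM in yl_10. On the log2 scale this was 0.26 (SE 0.05, adjusted p = 0.00218). YALI1_A10857g (XM_499957.1, 354 nt) had 6813, 6865 and 6369 CPM in yl_12 and 4795, 4569 and 4372 CPM in yl_10, a change of 0.55 on the log2 scale (SE 0.06, adjusted p = 6.79e-05). YALI1_C08262g (XM_501515.1, 1017 nt) had 6399, 6399 and 6039.9 CPM in yl_12 and 4447, 4445 and 4340.3 CPM in yl_10, a change of 0.51 on the log2 scale (SE 0.05, adjusted p = 4e-05). In these 3 features every yl_12 library was above every yl_10 library, and with library totals as the only scaling the log2 fold changes were 0.20, 0.49 and 0.46, all still called.

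XM_503602.1, a feature of 4176 nt with no locus tag in the reference table, had 2348, 2268 and 2981 CPM in yl_12 and 1089, 1227 and 969 CPM in yl_10. Its change was 1.21 on the log2 scale (SE 0.11, adjusted p = 0.000112). It was 1 of 4 rises of at least 2-fold called in class 10, with YALI1_B29419g, YALI1_D04128g and YALI1_F31822g, and YALI1_F14495g was the only such fall. Without the libraries that stood apart, XM_503602.1 was just under 2-fold, at a log2 fold change of 0.998. YALI1_F31822g was under 2-fold there, at 0.71, and also with library totals as the only scaling, at 0.95. On the losing side stood YALI1_F02132g, given above, and YALI1_C11862g (XM_501607.1, 777 nt). That gene had 1609, 1602 and 1929.5 CPM in yl_12 and 2864, 2836 and 2696 CPM in yl_10, a change of -0.71 on the log2 scale (SE 0.07, adjusted p = 2.94e-05). XM_503410.1, a feature of 390 nt without a locus tag, had 801, 783 and 1075 CPM in yl_12 and 1780.5, 1660.4 and 1751 CPM in yl_10, a change of -0.97 on the log2 scale (SE 0.11, adjusted p = 0.000287). YALI1_B18572g (XM_500864.1, 1830 nt) had 1134, 1104 and 1220.1 CPM in yl_12 and 1817, 1728 and 2050.1 CPM in yl_10, a change of -0.69 on the log2 scale (SE 0.06, adjusted p = 2.51e-05). In all 3 of these falls yl_11 was nearer to yl_10 than to yl_12, at means of 2705, 1645 and 1835 CPM.

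Calls were found for every letter that names a chromosome in the locus tags. The share of features called ran from 13.8% for letter A (39 higher and 33 lower of 522) to 16.4% for letter B (65 and 66 of 797). Median log2 fold changes per letter lay between -0.03 and 0.01. Over all features with a locus tag 15.5% were called, 7.13% higher and 8.35% lower. Letter E, with 6.36% higher and 9.73% lower of 1243, had the lowest share of rises and the highest share of falls. Of the tagged features called at least 2-fold, letter E held 1 of the 19 rises and 12 of the 28 falls, and it held 1243 of all 5342 tagged features tested. The 12 falls include YALI1_E15555g, YALI1_E15559g and YALI1_E15629g of the stretch described above. Letter E was picked out after its values were seen. These tallies are descriptions without a test.

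By coding length, RefSeq features of up to 300 nt were called least often, in 8.44% (10 higher and 3 lower of 154), and they were also scarcer, at a median of 17.9 CPM. Features over 1200 and up to 1800 nt were called in 16.2% (102 higher and 142 lower of 1509). Of the 359 tested features that carry only a running number from the authors, 21 were higher and 10 lower, or 8.64%, at a median of 17.7 CPM. The lower levels of the short and the running-number features go with lower power, and the part of this in their shares was not tested.

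The scarcest large changes, chosen after their values were seen, rest on few reads. YALI1_E03973g (XM_503493.1, 606 nt) had the most negative log2 fold change of all calls, -2.93 (SE 0.50, adjusted p = 0.00437). It was at 1.12, 0.650 and 1.16 CPM in yl_12, with 13, 8 and 14 counts, and at 6.36, 5.96 and 10.8 CPM in yl_10. YALI1_D07831g (XM_502472.1, 936 nt) rose by 2.08 on the log2 scale (SE 0.31, adjusted p = 0.000839), at 8.58, 5.77 and 4.63 CPM in yl_12 and 1.80, 1.29 and 1.14 CPM in yl_10. Both features kept their call in each of the 18 alternatives.

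A fold of 2 alone did not make a call. 23 features changed by at least 2-fold without passing the test, 9 higher and 14 lower, and 9 of them had a mean of at least 10 CPM in the higher strain. YALI1_D34980g, chosen after its values were seen, was one of these 9, with 24.4, 24.9 and 63.6 CPM in yl_12 and 101, 89.2 and 137 CPM in yl_10. The strains did not overlap there, but replicate 3 was the highest library of both, and the log2 fold change of -1.53 had an SE of 0.54 (adjusted p = 0.121).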

How the data were processed

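Total RNA of 9 libraries, 3 from each of 3 strains, was sequenced as paired-end reads, per the labels' protocols. The authors deposited raw read counts per feature, and FPKM values that divide those counts by coding length and library total. The submitters' processing notes name HTSeq 0.6.1 and DESeq 1.18.0 without saying what each did. Aligner, genome build, annotation and strand setting: not given in the sources used here. The 6366 features are 5959 RefSeq accessions and 407 running numbers, and 5430 accessions (91.1%) matched a locus tag of the RefSeq table, assembly ASM176148v1, with versions ignored. That table served for tags and gene order only, without coordinates. Coding lengths came from the ratio of counts to FPKM.

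The main test was edgeR 4.0.16 in R 4.3.3, by quasi-likelihood with TMM factors, its default expression filter by strain and robust dispersions. The model held strain alone, was fitted to all 9 libraries, and gave the contrast yl_12 minus yl_10 for 6147 features, 5342 of them with a locus tag. P-values had Benjamini-Hochberg adjustment, and 0.05 was the threshold. Each SE of this fit was the size of the log2 fold change divided by the square root of its quasi-likelihood F value. The 95% intervals extend from the log2 fold change by this SE times a t quantile. The script was tested on simulated data.

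Named features were called, carried a locus tag, had a mean of at least 10 CPM in whichever strain was higher, and did not overlap between strains. The 8 largest rises, the 8 largest falls and the 4 largest of each in level class 10 were taken, and 1 feature qualified under both parts. Comparison, rule and lists were chosen with earlier results of these data known. The lists of isoprenoid, sterol, lipid and other enzymes needed product names or proteins and were not used here. Alternatives were DESeq2 1.42.0, limma 3.58.1 on log2 FPKM, other scalings and filters, a replicate block, and fits with libraries left out.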

Additional observations from a re-analysis of the deposited data

How the results depend on the processing

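The comparison gave 430 higher and 480 lower features, 56 of them at least 2-fold. DESeq2, no filter on low counts and the 6 libraries alone kept each of these counts within 1.5 times. With library totals as the only scaling there were 264 higher and 791 lower features. With limma on log2(FPKM + 1) and a mean of at least 1 there were 257 and 747, with a pseudocount of 0.1 there were 258 and 746, and with no filter 256 and 742. FPKM values are scaled to library totals too. Without the 3 libraries that stood apart there were 960 and 960, by a choice that lowers the spread. With each library left out in turn, the count of higher features ranged from 266 to 507, the lower from 335 to 505 and the 2-fold features from 44 to 56. No alternative reversed the direction of a named feature, and 18 of the 23 features named by rule were called in all 18 alternatives. Without the 3 libraries that stood apart, some sizes moved. The log2 fold change went from 1.01 to 0.71 for YALI1_F31822g, from 1.66 to 1.28 for YALI1_B07331g and from 1.20 to 0.95 for YALI1_F24247g. It went from -1.52 to -1.29 for YALI1_E40671g, but from -1.95 to -2.41 for YALI1_C18209g and from -1.95 to -2.30 for YALI1_E10320g.

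The replicate number as a block gave 352 higher and 405 lower features and 50 at least 2-fold. It ended the calls of YALI1_F25382g (adjusted p = 0.0603), YALI1_B07331g (0.0872) and YALI1_F31822g (0.0622). Deviations of same-numbered libraries of yl_12 and yl_10 correlated at 0.06, 0.17 and 0.27 for replicates 1, 2 and 3. For differently numbered libraries of these strains the correlations ran from -0.25 to 0.19. These values do not settle whether the numbers pair the samples. The labels give no shared culture or batch for a replicate number, so the main fit did not pair them. The depth of yl_10 replicates 2 and 3, at 8304873 and 7035777 counts, limits what can be said of scarce features.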

Other observations

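Features of nearly the same coding length were high in a single library of yl_10. Replicate 3 of yl_10 exceeded both other yl_10 libraries by at least 3-fold, at 10 CPM or more, in 7 features, chosen after their values were seen. Of these, 5 have a coding length of 1107 nt, a length shared by 15 tested features in all. YALI1_B26033g (1116 nt) had 5.15, 3.82 and 21.8 CPM in yl_12, 28.97, 5.35 and 6.25 CPM in yl_11 and 3.94, 3.16 and 86.6 CPM in yl_10. YALI1_C10762g (1107 nt) had 4.80, 7.40 and 13.8 CPM in yl_12, 18.7, 6.25 and 6.98 CPM in yl_11 and 8.64, 11.2 and 71.97 CPM in yl_10. YALI1_F18740g (1107 nt) had 3.69, 2.60 and 9.76 CPM in yl_12, 11.4, 3.37 and 4.53 CPM in yl_11 and 4.21, 4.44 and 47.7 CPM in yl_10. In all 7 features yl_12 replicate 3 and yl_11 replicate 1, the libraries of those strains that stood apart, were also the highest of their strain. For yl_10 replicate 3 the choice of features fixed this. No share over all features is given for yl_12 and yl_11.

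YALI1_A12540g (1107 nt) had 6.005, 4.23 and 7.78 CPM in yl_12 and 3.59, 4.79 and 34.2 CPM in yl_10. YALI1_E19036g and YALI1_C20054g, both 1107 nt, reached 11.1 and 11.7 CPM in yl_10 replicate 3, and YALI1_F36584g (1098 nt) reached 38.3 CPM. None of the 7 was called in yl_12 against yl_10, the smallest adjusted p in edgeR being 0.236 at an unadjusted p of 0.0804. The choice of features high in yl_10 replicate 3 itself sets a lower mean in yl_12, so no direction is read from them. The sequences of these features were not compared.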
